A study of Homo sapiens with 12 samples.

Results

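HES4, HES1, HES6, HEY1, NOTCH1, NOTCH2, NOTCH3, JAG1, JAG2 and DLL3 are 10 genes of the Notch signalling pathway, found by name in both deposited tables of 26485 genes each. They were selected on the 4 deposited condition means described here (conditions A and B in each table), with earlier results of these data known, so their values are given as a description with no test of their own. All 10 had more than 10 normalized reads in every condition, so none was lost to a filter on low values. RNA-seq was made from polyA RNA of HEK293T, an embryonic kidney cell line with the SV40 large T antigen, in 4 groups of 3 samples. Each group received a plasmid by polyethylenimine, named in the labels as PX330-GFP-cas9-6T-sgRNA, PX330-GFP-noCas9-6T-sgRNA, PX330-GFP-cas9-luciferase-sgRNA or PX330-GFP-noCas9-luciferase-sgRNA. PX330 plasmids carry the Cas9 nuclease of Streptococcus pyogenes together with a guide RNA, and all 4 groups share transfection, a GFP plasmid and a guide. The share of cells that took up the plasmid is not given in the sources used here. The luciferase guide is aimed at a gene that human cells lack, and the labels do not say what the 6T guide is aimed at. The comparison with and without Cas9 asks what the nuclease does to the transcripts of its host cell.

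The deposited tables, 1 for each guide, give means for a condition A and a condition B without saying which of them held Cas9, or whether A is the same treatment in both tables. Every difference is therefore given as condition B over condition A under 1 guide, or as the 6T guide over the Luciferase guide within a letter, and a letter shared by both tables is a shared column name only. The 3 libraries behind each mean were recovered from the means and are called B1 to B3 and A1 to A3 in order of size factor; these numbers are not the replicate numbers of the labels. Levels are normalized reads, meaning reads per gene divided by the size factor of the library. The libraries held 6656622 to 8293567 gene reads in 6T condition B, 6352611 to 8265916 in 6T condition A, 19373340 to 38193644 in Luciferase condition B and 5885765 to 8236687 in Luciferase condition A. Luciferase condition B was thus the deepest group, and its part in any difference was not tested. All 7 listed markers of HEK293T cells (neurofilaments, vimentin, keratins 8 and 18 and N-cadherin) were present, with a summed mean of 13240 to 14840 normalized reads per condition. The 2 liver markers summed to 8.45 to 14.6 normalized reads per condition, and the 2 endothelial markers to 2.39 to 5.52. The T cell marker CD3E was at 0 in all 12 libraries. Of the 3 fibroblast markers, COL1A1 and COL3A1 were expressed, and the list summed to 597.8 to 627.5 normalized reads per condition.

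Notch receptors sit in the cell membrane and bind Jagged and Delta-like ligands on neighbouring cells. Binding leads to 2 cuts of the receptor, the second by gamma-secretase, which free its intracellular domain to enter the nucleus and turn the DNA-binding protein RBPJ from a repressor into an activator. The best known targets encode HES and HEY proteins, basic helix-loop-helix repressors that hold back differentiation genes in the developing nervous system, kidney and blood vessels. HES1 protein also represses its own gene, shown in mouse, through short N box sequences in the promoter. HES4 is a close relative of HES1 in humans that mice lack.

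The promoters of HES4 and HES1 are shown because these 2 genes had the largest differences between conditions under the 6T guide, and because both hold the letters that RBPJ recognises. The sequences come from RefSeq (GRCh38.p14), cover the 250 bases before the RefSeq start of each gene, and run 5′ to 3′ on the strand of the gene, with each TGGGAA in capitals. HES4 is read from the minus strand at chr1:1000098-1000347, and HES1 from the plus strand at chr3:194135898-194136147.
HES4: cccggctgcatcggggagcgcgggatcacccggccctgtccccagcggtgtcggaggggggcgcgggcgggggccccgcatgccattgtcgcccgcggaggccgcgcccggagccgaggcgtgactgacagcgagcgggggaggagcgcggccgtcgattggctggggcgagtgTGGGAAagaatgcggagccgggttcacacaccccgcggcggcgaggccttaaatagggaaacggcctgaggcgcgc
HES1: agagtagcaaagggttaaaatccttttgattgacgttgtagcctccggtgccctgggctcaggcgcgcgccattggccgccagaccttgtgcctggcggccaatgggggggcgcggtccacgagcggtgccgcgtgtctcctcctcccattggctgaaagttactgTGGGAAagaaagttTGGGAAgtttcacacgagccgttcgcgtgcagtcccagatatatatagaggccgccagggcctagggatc
The 7 letters GTGGGAA, searched on both strands, were found 1 time in each of the 2 promoters and in 5.43% of 35116 RefSeq promoters of the same length. The shorter TGGGAA, which every GTGGGAA contains, was found 2 times in HES1 and 1 time in HES4, and in 20.8% of all promoters. The longest run of letters that the 2 promoters share is tgtgggaaagaa, 12 bases that start at position -78 in HES4 and at position -86 in HES1, counted back from the RefSeq start. The N box CACNAG was found 3 times in HES1 and 0 times in HES4, and in 32% of all promoters. The related CACGNG, which overlaps it in CACGAG, was found 4 times in HES1 and 0 times in HES4, and in 26.7% of all promoters. Of the 10 genes, 8 had an entry in the promoter table, all but HEY1 and DLL3, and the 6 others (HES6, NOTCH1, NOTCH2, NOTCH3, JAG1 and JAG2) held neither GTGGGAA nor TGGGAA in this window. These matches describe letters and not bound sites. The windows follow RefSeq starts, which can differ from the GENCODE gene positions given below. The HES6 window (238240039 to 238240288) lies wholly inside the GENCODE span of that gene (238238267 to 238240662, minus strand). The absence of both motifs for HES6 therefore does not describe the sequence before its GENCODE start. The windows of HES1, HES4 and JAG2 overlap their GENCODE spans in part.

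Per kilobase of transcript, HES4 and HEY1 had the highest levels of the 10 genes and JAG1 the lowest. HES4 averaged 1685 normalized reads per kilobase over the 4 group means, and HEY1 averaged 1593. HES1 followed at 399, HES6 at 297, JAG2 at 269, NOTCH2 at 209, NOTCH3 at 126, NOTCH1 at 100.2, DLL3 at 91.6 and JAG1 at 26.7 normalized reads per kilobase. Over the 12 libraries, 3 neighbours in this order had ranges that did not overlap. HEY1 (1398 to 1778 normalized reads per kilobase) lay above HES1 (292 to 571), NOTCH2 (178 to 242) above NOTCH3 (106 to 149), and DLL3 (79.5 to 102) above JAG1 (21.4 to 31.3). The other 6 neighbouring pairs overlapped, HES4 and HEY1 among them, so their order is not fixed by these libraries. The messages of 3 receptors, 3 ligands and 4 target repressors were thus all present in every library of this line.

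HES4 was higher in condition B than in condition A under the 6T guide, in every library, and had a lower mean in B than in A under the Luciferase guide. It lies on chromosome 1 from 998962 to 1000172 on the minus strand (GRCh38, GENCODE 29, as for all gene positions given here). Under the 6T guide, HES4 had 1758, 2166 and 1951 normalized reads in condition B, against 1557, 1292 and 1184 in condition A. Every condition B library lay above every condition A library. The means were 1958 ± 204 in condition B and 1344 ± 192 in condition A (SD, n = 3 each), which is 1.46-fold higher in B, or 0.54 on the log2 scale. Of all genes with recovered reads and a mean of at least 10, 97.5% had a smaller log2 difference in this comparison, counted without sign. HES4 was selected on these means, so that share is a description only. In bulk RNA, a change in the share of cells that express HES4 and a change in its message per cell cannot be told apart.

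Under the Luciferase guide, HES4 had 1907, 1667 and 1645 normalized reads in condition B, against 2229, 1833 and 1843 in condition A. These libraries overlapped, since B1 lay above A2 and A3. The means were 1739 ± 145 in condition B and 1968 ± 226 in condition A (SD, n = 3 each), a log2 difference of -0.18. The 6T difference minus the Luciferase difference was 0.72 on the log2 scale for HES4 and 0.53 for HES1, the 2 highest of the 10 genes. After correction for GC content the order was reversed, at 0.36 for HES4 and 0.54 for HES1. The corrected value of HES4 is uncertain, since this gene lies at the upper edge of the GC range. Set side by side across guides, the 6T condition A libraries (1344 ± 192) lay below all 3 Luciferase condition A libraries (1968 ± 226), at a log2 difference of -0.55. The 6T condition B libraries (1958 ± 204) overlapped those of Luciferase condition B (1739 ± 145), at a log2 difference of 0.17. 6T condition A was the one group of the 4 in which every HES4 library was below those of the others. The B over A comparison of the 6T guide and the 6T over Luciferase comparison in condition A share those 3 libraries, so those differences are not independent.

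**Figure D1:**
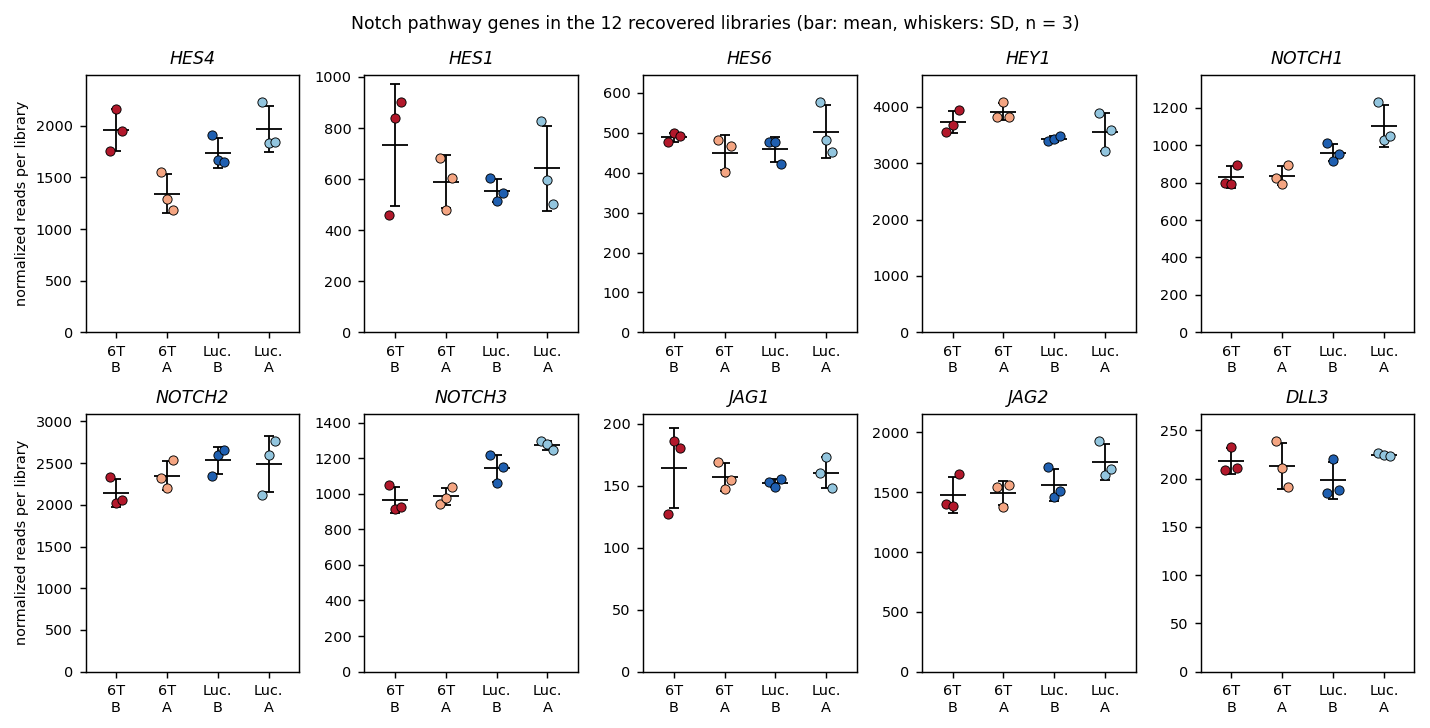
Normalized reads (y axes, linear from 0) of the 10 genes in each recovered library, with the 6T and Luciferase (Luc.) guides and conditions B and A along the x axes. Each point is 1 library, and bars with whiskers give the mean and SD of 3 libraries. HES4 sits between 1184 and 1557 normalized reads in 6T condition A and above 1600 in every other group.

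HES1, the canonical Notch target repressor, lies on chromosome 3 from 194136145 to 194138732 and varied most of the 10 genes between libraries of 1 condition. It had 461, 839 and 901 normalized reads in 6T condition B, against 685, 478 and 606 in 6T condition A. The lowest and the highest of these 6 values were both in condition B, so the groups overlapped (733.9 ± 238 against 589.6 ± 104, SD, n = 3 each; log2 difference 0.32). It had 605, 514 and 546 normalized reads in Luciferase condition B, against 826, 598 and 502 in Luciferase condition A. These overlapped as well (555 ± 45.8 against 642 ± 166, SD, n = 3 each; log2 difference -0.21), and without library A1 the log2 difference was 0.01. Across guides, the log2 difference of 6T over Luciferase was 0.40 in condition B and -0.12 in condition A, with overlap in both, and the second was 0.10 without Luciferase library A1. HES1 thus had the same signs as HES4 in all 4 comparisons, but its libraries did not separate in any of them.

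HES6, which in mouse opposes Hes1 and promotes neuronal differentiation, lies on chromosome 2 from 238238267 to 238240662 and had levels between 401 and 577 normalized reads. It had 476, 499 and 492 normalized reads in 6T condition B, against 483, 401 and 468 in 6T condition A. Under the Luciferase guide it had 476, 478 and 422 in condition B, against 577, 481 and 451 in condition A. Both pairs of groups overlapped, at log2 differences of 0.12 and -0.13.

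HEY1, a repressor of the related HEY family known for its role in heart and vessel development, lies on chromosome 8 from 79764010 to 79767863 and had the most reads of the 10 genes per library. It had 3558, 3685 and 3941 normalized reads in 6T condition B, against 3827, 4082 and 3827 in 6T condition A. Under the Luciferase guide it had 3387, 3429 and 3484 in condition B, against 3882, 3209 and 3586 in condition A. HEY1 overlapped within each guide, at log2 differences of -0.07 (6T) and -0.05 (Luciferase). All 3 libraries of 6T condition B lay above all 3 of Luciferase condition B (3728 ± 195 against 3433 ± 48.9, SD, n = 3 each; log2 difference 0.12).

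The 3 receptors had lower means with the 6T guide than with the Luciferase guide under both letters. NOTCH1 lies on chromosome 9 from 136494433 to 136545786, NOTCH2 on chromosome 1 from 119911553 to 120069626 and NOTCH3 on chromosome 19 from 15159038 to 15200981. NOTCH1 is the receptor best known from T cell development, and NOTCH3 is known for its role in the muscle cells of arteries. NOTCH1 had 798, 795 and 895 normalized reads in 6T condition B, 826, 792 and 893 in 6T condition A, 1009, 916 and 954 in Luciferase condition B, and 1229, 1028 and 1049.9 in Luciferase condition A. NOTCH3 had 1048, 915 and 928 normalized reads in 6T condition B, 944, 976 and 1039 in 6T condition A, 1215, 1061 and 1152 in Luciferase condition B, and 1294, 1277 and 1244 in Luciferase condition A. For both receptors every 6T library was below every Luciferase library of the same letter. NOTCH1 had log2 differences of 6T over Luciferase of -0.40 in condition A and -0.21 in condition B, and NOTCH3 had -0.37 and -0.25. Within the 6T table their B over A log2 differences were -0.01 and -0.03, and within the Luciferase table, where their libraries did not overlap, they were -0.20 and -0.15.

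NOTCH2, known in kidney development for the formation of proximal nephron segments, separated the guides in condition B and not in condition A. It had 2334, 2025 and 2058 normalized reads in 6T condition B, 2317, 2200.3 and 2539 in 6T condition A, 2347, 2597 and 2656 in Luciferase condition B, and 2113, 2599.6 and 2761 in Luciferase condition A. Its 6T condition B libraries were below those of Luciferase condition B (2139 ± 170 against 2533 ± 164, SD, n = 3 each; log2 difference -0.24), and in condition A the guides overlapped (-0.08). The B over A log2 differences were -0.14 under the 6T guide and 0.02 under the Luciferase guide, both with overlap. Reads that align equally well to the human-specific copy NOTCH2NL would be set aside as not uniquely aligned, so the NOTCH2 level is uncertain. Over all genes, reads set aside in this way were 19.9% in 6T condition B and 19.4% in 6T condition A. They were 22.6% in Luciferase condition B and 24.7% in Luciferase condition A, and their part in the NOTCH2 differences was not tested. NOTCH2NL, named after its values were seen, had means of 26.1 (B) and 28.4 (A) normalized reads under the 6T guide, and 36.6 (B) and 35.7 (A) under the Luciferase guide.

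Of the ligands, JAG1 and JAG2 encode Jagged proteins that activate receptors on adjacent cells, and DLL3 encodes a divergent Delta-like protein that stays mostly inside the cell and dampens signalling. JAG1 lies on chromosome 20 from 10637684 to 10673999, JAG2 on chromosome 14 from 105140981 to 105168824 and DLL3 on chromosome 19 from 39498895 to 39508481. JAG1, the lowest of the 10 genes, had 127, 186 and 180.3 normalized reads in 6T condition B, 169, 147 and 154 in 6T condition A, 153, 149 and 155 in Luciferase condition B, and 160.3, 173 and 148 in Luciferase condition A. Its groups overlapped in all 4 comparisons, and 331 to 1288 raw reads per group lay behind these means. JAG2 had 1401, 1385 and 1651 normalized reads in 6T condition B, 1548, 1379 and 1558 in 6T condition A, 1708, 1462 and 1511 in Luciferase condition B, and 1925, 1647 and 1691 in Luciferase condition A. For JAG2, 1 of the 4 comparisons had no overlap: its 6T condition A libraries were below its Luciferase condition A libraries, at a log2 difference of -0.23. DLL3 had 209, 233 and 211 normalized reads in 6T condition B, 238, 211 and 191 in 6T condition A, 185, 220.2 and 189 in Luciferase condition B, and 226, 224 and 223 in Luciferase condition A. DLL3 libraries of Luciferase condition B lay just below those of condition A (log2 difference -0.18), and its other 3 comparisons overlapped.

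Counted over the 10 genes, B over A under the 6T guide was higher for 5 and lower for 5, with a median log2 difference of 0.01, and 1 gene (HES4, higher) had libraries that did not overlap. Over all 13878 genes measured in that comparison, 4.13% were higher and 3.72% lower without overlap, 7.85% in either direction. B over A under the Luciferase guide was higher for 1 and lower for 9 of the 10 (median -0.16), and 3 (NOTCH1, NOTCH3 and DLL3) were lower without overlap, beside 9.47% of all genes lower, 6.45% higher and 15.9% in either direction. In condition A, 6T over Luciferase was higher for 1 and lower for 9 of the 10 (median -0.14). There 4 genes (HES4, NOTCH1, NOTCH3 and JAG2) were lower without overlap, beside 16.9% of all genes lower and 32.9% in either direction. In condition B it was higher for 6 and lower for 4 (median 0.10), with HEY1 higher and NOTCH1, NOTCH2 and NOTCH3 lower without overlap, beside 6.16% and 6.7% of all genes in those directions and 12.9% in either. In the authors' deposited tables, 0 of the 10 genes passed an adjusted p of 0.05 under either guide, where 8 of 19246 genes (0.0416%) passed under the 6T guide (0.0156% higher and 0.026% lower in B) and 0 of 20194 (0%) under the Luciferase guide. At an unadjusted p of 0.05 the authors' deposited tables held 167 genes (0.868%) under the 6T guide and 246 genes (1.22%) under the Luciferase guide. For the Luciferase guide limma, fitted on log2 recovered reads, called 0 (0%) after adjustment and 1340 (9.63%) without it. HES4 stood at place 10 by p in the authors' deposited table of the 6T guide, with a DESeq adjusted p of 0.361. The gene was chosen with these values known, so its place follows largely from the choice and is no support for a difference.

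Base composition moved with these differences, and the 10 genes differ in it. The HES4 transcript is 73.9% G and C, and 99.9% of the 11291 genes with 50 or more normalized reads in both tables and a matched transcript had a lower value. HES6 is at 68.4%, DLL3 at 64.9%, JAG2 at 64.0%, NOTCH3 at 63.1% and NOTCH1 at 62.9%, while HES1 (49.9%), JAG1 (49.6%), NOTCH2 (49.4%) and HEY1 (47.3%) are near the median gene (49.0%). Over those 11291 genes, which share the same libraries, Spearman's rho between GC content and the log2 difference was 0.48 for B over A under the 6T guide and -0.77 under the Luciferase guide. For 6T over Luciferase rho was -0.80 in condition A and -0.09 in condition B. In condition A, the median log2 difference of 6T over Luciferase was -0.23 for genes of 60% GC or more and 0.27 for genes under 50%. What underlies this relation was not tested.

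**Figure D2:**
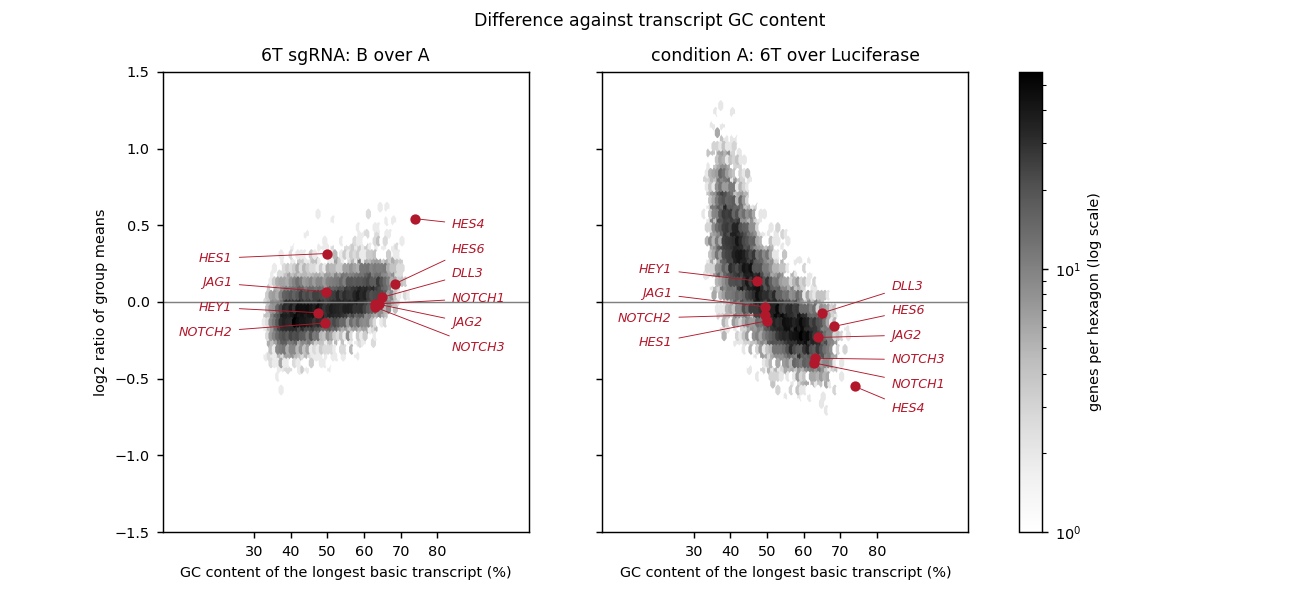
Log2 ratio of group means (y axis) against GC content of the longest basic transcript in percent (x axis), for condition B over A under the 6T guide and for 6T over Luciferase in condition A. Grey hexagons count the 11291 genes on a log scale and red points are the 10 pathway genes. HES4, at 73.9% GC, lies at 0.54 in the first panel and at -0.55 in the second.

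With levels corrected for GC content within each library, HES4 kept its directions at smaller sizes. HES4 lies at the upper edge of the GC range, with 99.9% of genes lower, so its correction rests mostly on genes of lower GC and is uncertain. Its corrected levels were 1771, 2106 and 1808 normalized reads in 6T condition B, against 1705, 1463 and 1364 in 6T condition A. The libraries still did not overlap, and the log2 difference was 0.33 in place of 0.54. Under the Luciferase guide the corrected levels were 1731, 1723 and 1730 in condition B, against 1786, 1740 and 1788 in condition A, at a log2 difference of -0.04. For 6T over Luciferase in condition A, the HES4 log2 difference was -0.23 after correction and -0.55 before it, and the difference between the guides in B over A was 0.36 after correction and 0.72 before it. HES1, of median GC content, had log2 differences of 0.35 (6T) and -0.19 (Luciferase) for B over A after correction, close to the uncorrected ones. NOTCH1 and NOTCH3 kept their lower levels with the 6T guide in condition B after correction (log2 differences -0.21 and -0.24, without overlap), and in condition A these shrank to -0.16 and -0.14. HES6 changed sign for B over A under both guides, to -0.02 (6T) and 0.02 (Luciferase), and JAG2 in condition A came to 0.01. After correction the libraries did not overlap for 1 of the 10 genes under the 6T guide, 1 under the Luciferase guide (HES4, lower), 2 in condition A (HES4 and NOTCH1, both lower) and 4 in condition B (HES4 and HEY1 higher, NOTCH1 and NOTCH3 lower). The shares of all genes in either direction were then 7.01%, 14.5%, 18.9% and 18.1% in these 4 comparisons.

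**Figure D3:**
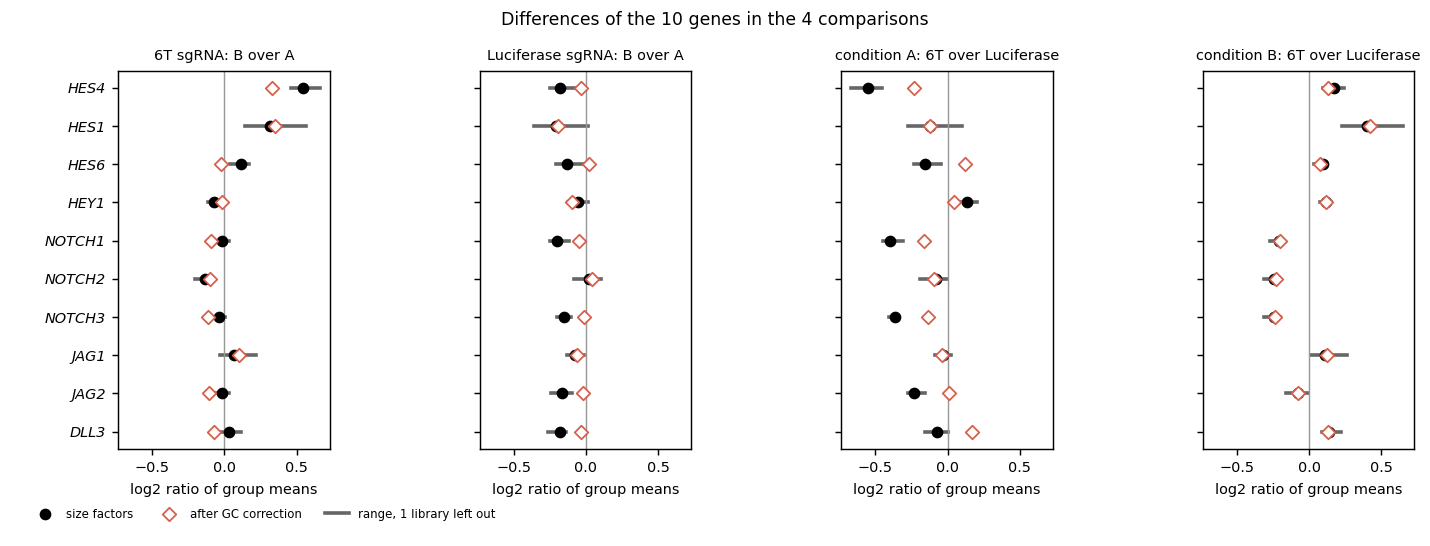
Log2 ratio of group means (x axis) for each of the 10 genes in the 4 comparisons. Black points use the size factors, open diamonds the levels corrected for GC content, and grey bars the range when 1 library at a time was left out. HES4 under the 6T guide stayed between 0.46 and 0.66 with any 1 library left out and lay at 0.33 after GC correction.

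Of the other genes of the pathway, 57 were listed by role, and 53 of them had a mean of 10 or more normalized reads under the 6T guide. Condition B over A was higher for 26 and lower for 27, with a median log2 fold change of -0.00 in the authors' deposited table, beside -0.03 over all 14051 genes of that level. The authors' deposited test called 0 of the 53, at 0.0416% of all genes, and 0 had an unadjusted p under 0.05. Limma called 0 after adjustment and 1 without it, where 2.36% of all genes had an unadjusted p under 0.05. Under the Luciferase guide 54 were measured, with 17 higher, 37 lower and a median of -0.05, beside -0.01 over all genes. There the authors' deposited test called 0 of the 54 (0% of all genes), and 0 had an unadjusted p under 0.05 (1.22% of all genes). Limma called 0 of the 54 after adjustment (0% of all genes) and 2 without it (9.63% of all genes). Below the level of 10 were the ligand gene DLK1, at 0 in both tables, the repressor gene HES3, the ubiquitin ligase gene DTX4, and under the 6T guide the glycosyltransferase gene MFNG.

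The genes of the nuclear complex, which join the cut receptor at DNA, were all lower in 6T condition B by sign, 7 of 7, and none passed the test. SNW1, a coactivator that binds the receptor domain, averaged 1265 ± 220.0 normalized reads in condition B and 1504 ± 357 in condition A (SD, n = 3 each; -0.25 on the log2 scale, adjusted p = 1 by DESeq in the authors' deposited table). RBPJ itself averaged 585.6 ± 108 in condition B and 732 ± 257 in condition A (SD, n = 3 each; -0.32, adjusted p = 1 by DESeq in the authors' deposited table). Both pairs of groups overlapped. Under the Luciferase guide 3 of the 7 were higher and 4 lower, and RBPJ averaged 620.6 ± 160 in condition B and 489 ± 102 in condition A.

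Under the Luciferase guide the nuclear complex genes with the smallest p were KAT2B, a histone acetyltransferase, and MAML1, the coactivator that completes the complex. Their log2 fold changes were 0.32 and -0.16. Neither was near a call, at an unadjusted p of 0.17 (KAT2B) and 0.35 (MAML1) by DESeq in the authors' deposited table.

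Corepressors, which act with RBPJ before activation or with HES proteins, divided 7 higher and 4 lower under the 6T guide and 1 higher and 10 lower under the Luciferase guide, with 0 called in either. Over all genes with a mean of 10 or more, 42.2% were higher under the 6T guide and 49.0% under the Luciferase guide. TLE2, a Groucho corepressor that HES proteins recruit, averaged 328 ± 62.2 normalized reads in 6T condition B and 257 ± 17.1 in 6T condition A (0.35 on the log2 scale, adjusted p = 1 by DESeq in the authors' deposited table). For SPEN, a corepressor that binds RBPJ directly, the 6T log2 fold change was -0.19. CTBP1, a corepressor of the CtBP family, had -0.12 under the Luciferase guide.

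The cleavage genes, for the proteases that mature and cut the receptor, divided 5 higher and 4 lower under the 6T guide and 4 higher and 5 lower under the Luciferase guide. ADAM10, the protease of the first ligand-induced cut, averaged 371 ± 56.8 normalized reads in 6T condition B and 397 ± 73.2 in 6T condition A, and 363 ± 64.9 in Luciferase condition B and 292 ± 88.9 in Luciferase condition A. FURIN, which cuts the receptor during its maturation, averaged 1155 ± 59.8 in Luciferase condition B and 1376 ± 171 in Luciferase condition A (-0.25 on the log2 scale). Both genes had an adjusted p of 1 by DESeq in the authors' deposited tables.

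Among the enzymes that add sugars to the receptor, LFNG averaged 21.2 ± 8.74 in 6T condition B and 32.5 ± 7.0 in 6T condition A (-0.62, adjusted p = 1 by DESeq in the authors' deposited table), and RFNG had a log2 fold change of 0.27 there and of -0.22 under the Luciferase guide. NOTCH4, the remaining receptor, averaged 17.1 ± 6.51 in 6T condition B and 9.88 ± 2.48 in 6T condition A (0.79, adjusted p = 1 by DESeq in the authors' deposited table). The other ligand genes were close to 0: DLL4 had 0.11 and DLK2 0.08 under the 6T guide, and DLL1 had -0.16 and DLK2 -0.05 under the Luciferase guide.

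Trafficking and turnover genes divided 6 higher and 6 lower under each guide. With the 6T guide, log2 fold changes were 0.27 for MIB2, a ubiquitin ligase that activates ligands by endocytosis, and 0.47 for DTX1, of the Deltex family that regulates receptor trafficking. Under the Luciferase guide the ubiquitin ligase genes ITCH and MIB1 had 0.31 and 0.27. Of the other targets, NRARP, a feedback inhibitor that Notch induces, averaged 1313 ± 174 normalized reads in 6T condition B and 1224 ± 99.0 in 6T condition A (0.10). HES7, an oscillating repressor of the segmentation clock, had -0.24 under the 6T guide. HES5, another target repressor, averaged 116 ± 6.29 in Luciferase condition B and 134 ± 12.3 in Luciferase condition A (-0.21), and HES2 had -0.17.

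**Figure D4:**
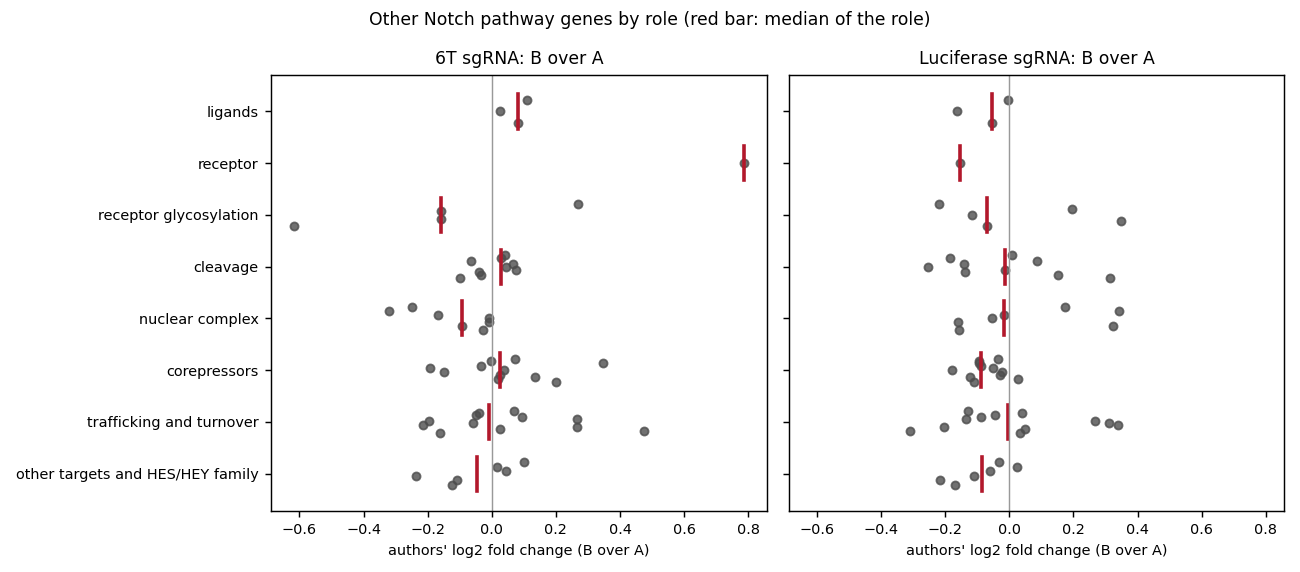
The authors' log2 fold change of condition B over A (x axes) for the other pathway genes with a mean of 10 or more normalized reads, by role (y axis), under the 6T guide and the Luciferase guide. Each point is 1 gene and red bars are medians. The 7 nuclear complex genes lie below 0 under the 6T guide, MAML1 and MAML2 at -0.009, where 42.2% of all genes of that level lie above 0. No gene in either panel passed the authors' test.

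Between guides, the same 54 genes were tested with limma on the recovered libraries. In condition A 22 were higher and 32 lower with the 6T guide, 0 were called at an adjusted p of 0.05 (9 of all 13905 genes, 0.0647%), and 14 had an unadjusted p under 0.05 (31.3% of all genes). Without Luciferase library A2, limma called 2 of the 54 (3.70%), among them MIB2, lower with the 6T guide, beside 1009 of all 13906 genes (7.26%). The share of listed genes was thus below that of all genes in that refit. The smallest p were those of MAML1 and MIB2. MAML1 averaged 1813 ± 33.3 normalized reads in 6T condition A and 2160 ± 31.3 in Luciferase condition A, and its libraries did not overlap (limma log2 difference -0.25, adjusted p = 0.0606). MIB2 averaged 203 ± 11.1 in 6T condition A and 304 ± 51.8 in Luciferase condition A (limma log2 difference -0.57, adjusted p = 0.0628). In condition B 26 were higher and 28 lower, 0 were called (0% of all genes), and 3 had an unadjusted p under 0.05 (5.39% of all genes). All 9 cleavage genes were higher with the 6T guide in condition B by sign, between 0.02 and 0.20 on the log2 scale, beside 50.6% of all genes. The highest of the 9 was NCSTN, a gamma-secretase subunit, at 1139 ± 60.9 with the 6T guide and 989.5 ± 42.4 with the Luciferase guide (limma log2 difference 0.20, adjusted p = 0.90). The difference between guides in B over A called 0 of the 54 and 0% of all genes, with 2 at an unadjusted p under 0.05 (9.35% of all genes).

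The 5 genes whose levels followed HES4 most closely over the 12 libraries included none of the other 9 pathway genes. With 5 places among 11412 genes, that is likely for any 9 genes taken at random. By Pearson's r of log2(normalized reads + 1) over 12 libraries, the 5 nearest of 11412 genes were FOXD3 (0.95), MNX1 (0.94), GPR27 (0.93), PPP2R3B (0.93) and PINK1 (0.92). FOXD3 and MNX1 encode transcription factors of neural crest and motor neurons, GPR27 an orphan receptor, PPP2R3B a regulatory subunit of protein phosphatase 2A and PINK1 a mitochondrial kinase. FOXD3 had means of 226 normalized reads in 6T condition B and 175 in 6T condition A, and of 219 in Luciferase condition B and 239 in Luciferase condition A. For all 5, as for HES4, 6T condition A had the lowest mean of the 4 groups. The 5 were picked for likeness to HES4 over these same libraries, so this follows largely from the choice. Their transcripts have GC contents of 54.8% (GPR27) to 68.6% (MNX1), all above the median gene. Over the 11412 genes the median r was -0.12, and 102 (0.894%) were above 0.8. Of the other 9 pathway genes, HES6 had the highest r with HES4 (0.66, place 661) and HES1 the next (0.53, place 1497), and NOTCH2 had the lowest (-0.36). These r are descriptions over libraries that share 4 groups, depth and GC content.

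**Figure D5:**
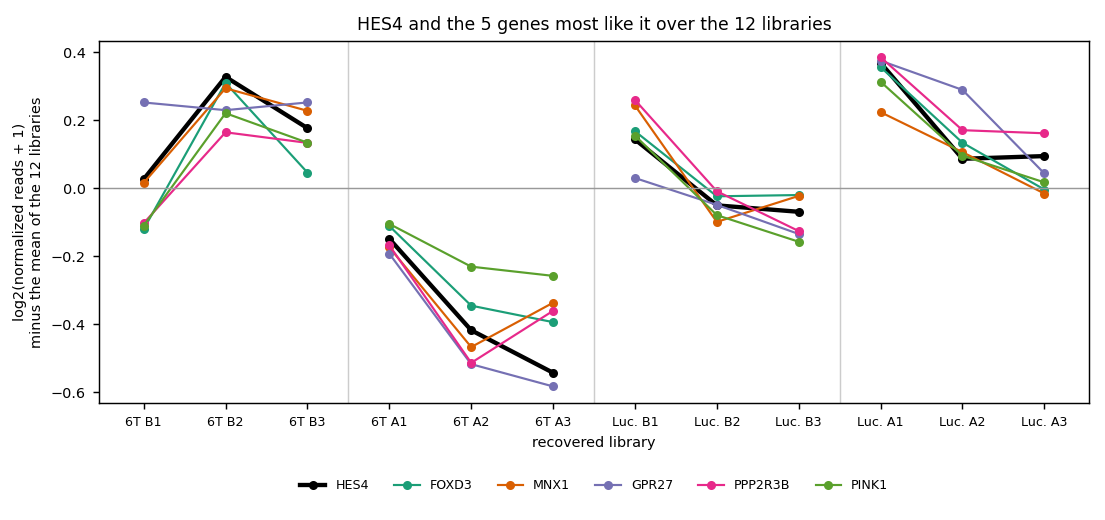
Log2(normalized reads + 1) of HES4 and the 5 genes most like it, minus the mean of each gene over the 12 libraries (y axis), by recovered library (x axis; Luc. is the Luciferase guide). Lines join libraries of 1 group. All 6 genes have their lowest group mean in 6T condition A, where HES4 lies between -0.15 and -0.54. For the 5 genes this follows largely from their being picked for likeness to HES4.

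The annotated span of the interferon-stimulated gene ISG15 runs from 1001138 to 1014540 of chromosome 1 on the plus strand. Its nearer end lies 965 bases from HES4, and where in this span its reads begin was not tested. ISG15, named after its values were seen, had 31.9, 64.2 and 64.5 normalized reads in 6T condition B, against 64.6, 79.9 and 58.8 in 6T condition A. Under the Luciferase guide it had 76.1, 67.0 and 66.0 in condition B, against 254, 114 and 136 in condition A. Its log2 fold change of B over A in the authors' deposited table was -0.34 under the 6T guide and -1.27 under the Luciferase guide (adjusted p = 1 in both). The neighbours HES4 and ISG15 thus had opposite signs under the 6T guide and the same sign under the Luciferase guide.  Annotated genes on the opposite strand overlap HES6, NOTCH1 and JAG1, and the use of strand in counting is not given in the sources used here, so reads of the 2 strands cannot be told apart for these 3 genes.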

How the data were processed

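The tables were made by the authors with STAR, HTSeq and DESeq on hg38, per the submitters' processing notes; versions are not given in the sources used here. Per the file headers, each row holds the deposited mean over all libraries and over conditions A and B (reads divided by a size factor), the deposited fold change (a ratio, B over A), its log2 value, and the deposited p-value with its adjusted p-value. The authors' log2 fold changes and p-values were used as deposited.

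Means of 3 libraries are sums of whole reads times 3 steps, so whole reads per library were recovered (numpy 2.4.6, numba 0.67.0, Python 3.11.15), for 99.0% to 99.9% of the genes above 0 in each condition. A gene was kept where 1 combination of whole numbers gave the mean. Where too many combinations existed, each library was searched within 50% of the mean, and a gene with more than 0.05 expected chance solutions was left out. Genes left out held 5.90% to 19.9% of the reads. On simulated data with known reads the search was tested and returned them. The size factors lay within 0.122% of those computed by median of ratios on the 12 libraries together, so both tables share 1 scale. Rows that name no gene (38.6% to 42.3% of the reads) were left out.

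Differences across genes were tested with limma 3.58.1 (R 4.3.3, trend) on log2(normalized reads + 1) for genes with a mean of 10 or more, fitted on all genes, with Benjamini-Hochberg adjustment over all of them. The fold changes on that scale understate changes of low genes. The fit was tested on simulated data. GC content came from the longest basic transcript of GENCODE 29 (97.7% of measured genes matched) and was corrected within each library by a lowess of span 0.3. Nothing in the labels says that replicates were separate cultures, so p-values cover only differences between these samples, which may be technical.

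The 10 genes and all lists were chosen with earlier results of these data known. Named were all 10, then of the other pathway genes those past an adjusted p of 0.05, otherwise the 2 per role and comparison with the smallest p (between guides, the genes with the smallest p only), and the 5 genes with the highest r with HES4. Alternatives were another pseudocount, filter, scaling, the GC correction and leaving out each library. Values of some listed genes are not reported here.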

Additional observations from a re-analysis of the deposited data

How the results depend on the processing

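HES4 kept its direction in all 5 comparisons under every alternative tried, but part of this was fixed in advance. Where its libraries did not overlap (6T, B over A, and 6T over Luciferase in condition A), leaving out 1 library could not change the sign. A pseudocount added to both means cannot change the sign of their ratio. GC correction moved 3 of the HES4 values: 0.33 for B over A under the 6T guide, -0.23 for 6T over Luciferase in condition A, and 0.36 for the difference between guides, below the 0.54 of HES1 there. These 3 corrected values are uncertain, since HES4 lies at the upper edge of the GC range. With 1 library left out, HES4 ranged from 0.46 to 0.66 (6T, B over A), -0.25 to -0.08 (Luciferase, B over A), -0.67 to -0.45 (condition A), 0.09 to 0.24 (condition B) and 0.62 to 0.84 (difference between guides). Over the 10 genes, 21 of 510 alternative values moved by more than the replicate SD, all 21 under GC correction. That correction gave 1 value for each of the 50 differences, so it moved 21 of 50. Leaving out 1 library, the other pseudocount and the other scaling change these means little by design, so they could hardly pass that SD. By sign, 21 of 50 differences changed under at least 1 alternative. Calls among the other pathway genes in condition A ranged from 0 to 2 with 1 library left out (2 of 54, or 3.70%, without library A2 of the Luciferase guide, where limma called 7.26% of all genes). No paired analysis was possible because the recovered libraries carry no replicate number from the labels. Depth limits the low genes most, JAG1 with 331 to 1288 raw reads per group.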
